A study of Mus musculus with 8 samples.

Results

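DNA repair genes were examined in C2C12 cells, a mouse myoblast line, in which the long non-coding RNA Pvt1 had been silenced. Members were chosen by gene symbol only: the Fanconi genes Fanca to Fancm, symbols that start with Rad50 to Rad59, Brca1, Brca2 and their partners Brip1, Bard1 and Palb2, the Xrcc, Ercc, Msh and Mlh families, Atm, Atr, Chek1, Chek2, Nbn, Mre11a, Blm and Ung. This gave 55 genes with 128 probes, of 36693 gene names and 56605 probes on the array, and 52 genes with 92 probes had enough signal to be tested, that is at least 3 values in each group. No member probe that was tested was saturated. The remaining 3 genes, Msh4, Rad51ap2 and Fancd2os, had no tested probe: Msh4 was positive and significant on 1 control array at 1 of its probes, and the others on no array.

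RNA came from 8 cultures of proliferating C2C12 at passage 10, each on 1 Agilent array with 1 colour (Cy3). The 4 control cultures (silencing none, Mock) had received negative control GapmeRs with a Lipofectamine reagent, and the 4 silenced cultures GapmeRs against Pvt1 with the same reagent. All cultures were thus transfected, and the model is a single cell line without an untransfected group. A GapmeR is an antisense oligonucleotide with locked bases at its ends that directs RNase H to the RNA it pairs with. The 2 GapmeRs against Pvt1 are shown since they define the silenced group:
Pvt1_1: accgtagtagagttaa
Pvt1_3: agtcaacgcttcacat

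Cells that proliferate repair their DNA by several routes. The Fanconi proteins open the repair of cross-links between strands, homologous recombination copies the lost sequence from the sister chromatid, end joining ligates broken ends directly, nucleotide excision repair removes bulky lesions and mismatch repair corrects copying errors. The kinases Atm and Atr, with Chek1 and Chek2 below them, couple damage to cell cycle arrest, and many repair genes are transcribed mainly in dividing cells.

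The target was checked first. The brightest Pvt1 probe (NR_003368, chromosome 15, 62081020 to 62081079, mm9) had a log2 signal of 9.65, 9.79, 10.31 and 9.70 on control arrays 1 to 4 and of 7.09, 6.69, 7.85 and 6.39 on silenced arrays 1 to 4. The groups did not overlap, and the change was -2.86 (SE 0.32, limma adjusted p 0.000682), which left 13.8% of the control level. Silenced replicate 4 was dimmer than the others, with 51.6% of spots positive and significant against 58.8% to 62.5% on the other 7 arrays. It was the lowest of all 8 arrays for 39 of the 52 repair genes. Control replicate 3 correlated least with its group, with a mean r of 0.96 against at least 0.98 for the others. Over all 28649 tested probes 4.79% were called higher and 18.4% lower, with a median change of -0.19 on the log2 scale. This split depended on the scaling, with 5416 probes higher and 5258 lower after cyclic loess and 7075 and 4365 after a shift of each array to its 75th percentile. Without silenced replicate 4 it was 3654 and 5104, with a median of -0.019. Myoblast markers summed to 111000 to 133000 normalized signal units in controls and 75700 to 97000 in silenced cells, 4 of 10 being called lower, and Myf5 was well above background on no array. Another 4 of the 10 had a positive change that was not called, and after cyclic loess 2 were called higher. The summed signal of 14 liver transcripts was 1050 to 1900 in controls and 5010 to 6330 in silenced cells. Of these, 2 of the 5 tested were called higher, and Apoa1, Cps1, Fga and Tat were well above background on no array. The part of these shifts in the values given here was not tested. In bulk RNA, fewer cells of a kind and less RNA per cell cannot be told apart.

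With each gene represented by its brightest tested probe, 6 of the 52 repair genes fell after Pvt1 silencing and 1 rose. Those that fell were Rad51b, Atm, Brca1, Ercc1, Msh5 and Rad52, and Fancg rose. Over all 19284 genes treated the same way, 14.0% were called lower and 6.02% higher, and 13.5% of repair genes passed the test in either direction. The median change of the 52 genes was -0.21, with a median of -0.09 over all genes, and 33 repair genes had a negative and 19 a positive change. The signal of the silenced arrays lay wholly below or above that of the control arrays in 11 repair genes, 10 of them lower, where 26.0% of all genes had groups without overlap. The split between directions depended on the normalization. After cyclic loess 6 repair genes were called higher and 6 lower, with 22.2% and 14.3% of all genes, and the median was 0.03 for repair genes and 0.11 for all genes. After the percentile shift they were 9 higher and 4 lower, with 29.9% and 10.6% of all genes. Relative to the median of all tested probes, the 6 falls lay between -1.16 and -0.57, and the rise of Fancg was 1.88. Without silenced replicate 4 the counts were 3 higher and 6 lower, and without control replicate 3 they were 2 and 7. Without control replicate 2 they were 1 and 3.

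**Figure D1:**
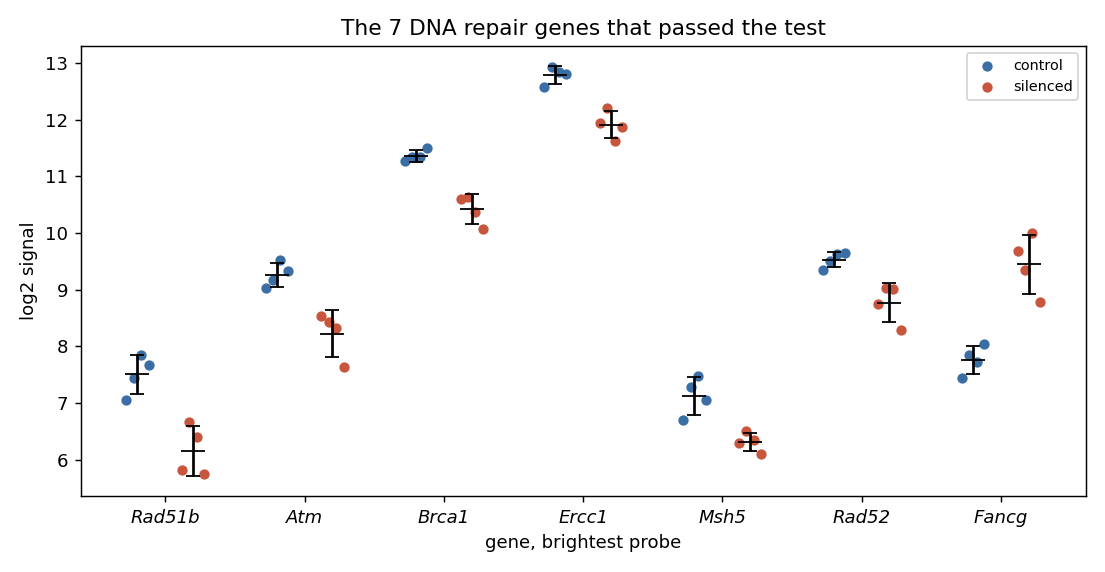
Log2 signal of the brightest probe of the 7 DNA repair genes that passed the test. Each dot is 1 array, blue for control and red for silenced, and the bars give the mean and SD of 4 arrays. In each gene no control value reaches a silenced value, with Fancg alone higher in silenced cells (7.77 against 9.45 on average).

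Among the genes of homologous recombination, 3 of 16 tested fell (18.8%) and none rose, where 14.0% of all genes were called lower. The median change was -0.26, with -0.09 over all genes. Brca1, which directs the resection of broken ends (NM_009764, chromosome 11, 101350409 to 101350468), fell. Its log2 signal was 11.27, 11.34, 11.33 and 11.51 on control arrays 1 to 4 and 10.60, 10.64, 10.38 and 10.08 on silenced arrays 1 to 4. All silenced arrays were below all control arrays, and the change was -0.94 (SE 0.20, limma adjusted p 0.00943), which left 52.2% of the control level. A second Brca1 probe, well above background on only 3 arrays, differed by 0.004 (limma adjusted p 0.997). Rad52, a mediator of strand annealing, gave 9.35, 9.51, 9.63 and 9.64 in controls and 8.75, 9.04, 9.02 and 8.30 in silenced cells. Again the groups did not overlap, and the change of -0.76 (SE 0.22, limma adjusted p 0.0344) was the smallest of the 7 called. The call of Rad52 was lost in 9 of 21 alternatives. Rad51b, which takes part in strand exchange, had 7.06, 7.45, 7.86 and 7.68 on control and 5.82, 6.66, 6.40 and 5.76 on silenced arrays, a change of -1.35 (SE 0.28, limma adjusted p 0.00785). This probe was well above background on all 4 control arrays but on only 2 silenced arrays, so that its level in silenced cells was near the limit of detection.

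No change was called in Brca2, a mediator of strand exchange. Brca2 had a log2 signal of 9.28, 9.67, 10.37 and 9.61 on control and 9.71, 9.47, 10.04 and 8.85 on silenced arrays. The groups overlapped, with a difference of -0.21 (SE 0.31, 95% interval -0.91 to 0.49, limma adjusted p 0.676). Blm, a helicase that dissolves recombination intermediates, was below all controls on every silenced array but missed the threshold (-0.88 (SE 0.31, limma adjusted p 0.066)); under cyclic loess it was called, at -0.67. Rad51ap1, which promotes strand pairing, also showed no overlap, with a difference of -0.39 (SE 0.20, limma adjusted p 0.189). Of the other genes of the group, Xrcc2, Rad51c, Palb2, Rad54l, Rad51d, Bard1, Xrcc3, Rad54b and Rad54l2 had differences from -0.56 in Xrcc2 to 0.20 in Rad54l2 and none passed the test.

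Of 7 genes of break sensing and checkpoint signalling, Atm alone was called, where 14.0% of all genes were called lower. The median change was -0.50. Atm, the kinase that answers to broken ends (NM_007499, chromosome 9, 53247691 to 53247750), had 9.03, 9.17, 9.52 and 9.34 on control arrays 1 to 4 and 8.53, 8.43, 8.32 and 7.63 on silenced arrays 1 to 4. Each silenced value was below the lowest control value, and the change was -1.04 (SE 0.25, limma adjusted p 0.015), or 48.8% of the control level. A second Atm probe nearer the 3′ end differed by -0.58 (limma adjusted p 0.15) with overlapping groups. Atr, the kinase that answers to single-stranded DNA at stalled forks, measured 10.82, 10.97, 11.57 and 11.00 and 11.01, 10.60, 11.49 and 10.37 in the same order, with overlapping groups and a difference of -0.22 (SE 0.29, 95% interval -0.86 to 0.42, limma adjusted p 0.629). Chek1, which Atr activates, gave 9.49, 9.39, 8.33 and 9.49 in controls and 8.84, 8.83, 9.17 and 7.84 after silencing. Control replicate 3 was about 1 log2 unit below the other controls, and the difference was -0.50 (SE 0.36, 95% interval -1.31 to 0.30, limma adjusted p 0.346). Chek2, which Atm activates, had 7.81, 8.54, 5.86 and 8.26 and 6.98, 7.84, 6.69 and 5.66, with the same control array lowest of the controls. Its difference of -0.83 (SE 0.61, 95% interval -2.20 to 0.54, limma adjusted p 0.366) had the widest interval of the genes given here, and without control replicate 3 it was -1.41 (limma adjusted p 0.0461). The complex of Mre11a, Rad50 and Nbn binds broken ends. Mre11a differed by 0.09 and Rad50 by 0.03, while Nbn differed by -1.19 (SE 0.47, limma adjusted p 0.0988) with all silenced arrays below all controls. For Nbn silenced replicate 4 read 6.54 and the other silenced arrays 8.45 to 8.70.

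The Fanconi genes held the only called rise. Fancg, a subunit of the core complex that places ubiquitin on Fancd2 and Fanci, had 7.45, 7.85, 7.73 and 8.03 on control arrays 1 to 4 and 9.67, 9.34, 10.00 and 8.78 on silenced arrays 1 to 4 (NM_053081, chromosome 4, 43015255 to 43015314). Every silenced array was above every control array and the change was 1.69 (SE 0.28, limma adjusted p 0.00331), a 3.22-fold higher signal. The other tested probes of Fancg, further upstream, differed by -0.84 and -0.62, and neither was called. Fanca, another core subunit, gave 8.86, 8.96, 9.67 and 9.09 in controls and 9.98, 9.81, 10.47 and 9.35 in silenced cells, where 1 silenced array lay inside the control range. The difference of 0.76 (SE 0.28, 95% interval 0.12 to 1.39, limma adjusted p 0.0833) missed the threshold and was called after cyclic loess, at 1.00. Fancf, also of the core, differed by 0.84 (SE 0.31, limma adjusted p 0.0784) in the quantile-normalized values and 1.05, called, after cyclic loess. Fance (0.30 and, called after cyclic loess, 0.47) was smaller. Fancd2, the substrate of the complex, measured 7.62, 7.82, 7.18 and 8.21 on control and 7.20, 7.47, 6.90 and 6.40 on silenced arrays, with overlap and a difference of -0.72 (SE 0.30, 95% interval -1.38 to -0.05, limma adjusted p 0.112). The rest of the 11 genes, Fancm, Fancc, Brip1, Fancb, Fancl and Fanci, lay between -0.76 and 0.15, and none passed. Over the group the median was -0.06.

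In nucleotide excision repair 1 of 7 genes fell, where 14.0% of all genes were called lower. Ercc1, which with Ercc4 cuts the damaged strand on the 5′ side (NM_007948, chromosome 7, 19939753 to 19940487, a probe that spans a gap in the genome), had 12.57, 12.93, 12.83 and 12.80 in controls and 11.94, 12.20, 11.62 and 11.87 in silenced cells. The groups were apart, with a change of -0.87 (SE 0.20, limma adjusted p 0.0131) and 54.5% of the control level left. Its partner Ercc4 differed by 0.36 (SE 0.23, limma adjusted p 0.291) with overlapping groups, the opposite sign, and was called after cyclic loess, at 0.50. Ercc2, a helicase of the transcription factor TFIIH, gave 9.14, 9.48, 10.40 and 9.50 and 10.27, 10.00, 10.20 and 9.45 for control and silenced arrays, a difference of 0.35 (SE 0.31, 95% interval -0.33 to 1.03, limma adjusted p 0.449). Ercc3, the other helicase of TFIIH, differed by 0.35 (called after cyclic loess, at 0.55), Ercc8 by 0.08, Ercc5 by -0.44 and Ercc6 by -0.54, none called.

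Mismatch repair and uracil excision gave 1 call in 7 genes, where 14.0% of all genes were called lower. Msh5, known mainly for its part in meiotic crossing over, had 6.70, 7.28, 7.48 and 7.05 in controls and 6.29, 6.51, 6.35 and 6.11 in silenced cells. It changed by -0.81 (SE 0.22, limma adjusted p 0.0265), but the probe was well above background on only 2 silenced arrays and the call was lost in 12 of 20 alternatives. Ung, the glycosylase that removes uracil from DNA, showed 14.40, 14.83, 13.87 and 14.61 in controls and 14.51, 14.37, 14.66 and 14.06 after silencing. Both its groups covered nearly the same range, and the difference was -0.03 (SE 0.25, 95% interval -0.59 to 0.54, limma adjusted p 0.953). Msh3, Msh6 and Mlh3 differed by 0.01, 0.17 and -0.41. The 4 genes of end joining and single-strand break repair gave no call. Xrcc6, the Ku70 subunit, had 13.08, 13.08, 13.46 and 13.31 and 13.61, 13.43, 13.64 and 12.98 on control and silenced arrays, a difference of 0.18 (SE 0.22, 95% interval -0.30 to 0.67, limma adjusted p 0.593). For Xrcc1, the scaffold of single-strand break repair, the values were 12.78, 12.74, 13.35 and 12.99 and 13.20, 13.27, 12.67 and 12.65, a difference of -0.02 (SE 0.24, 95% interval -0.55 to 0.52, limma adjusted p 0.974). Xrcc5, the Ku80 subunit, differed by -0.14, and Xrcc4, the partner of the ligase, by -0.58 (SE 0.25, limma adjusted p 0.124) with all silenced arrays below the controls.

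**Figure D2:**
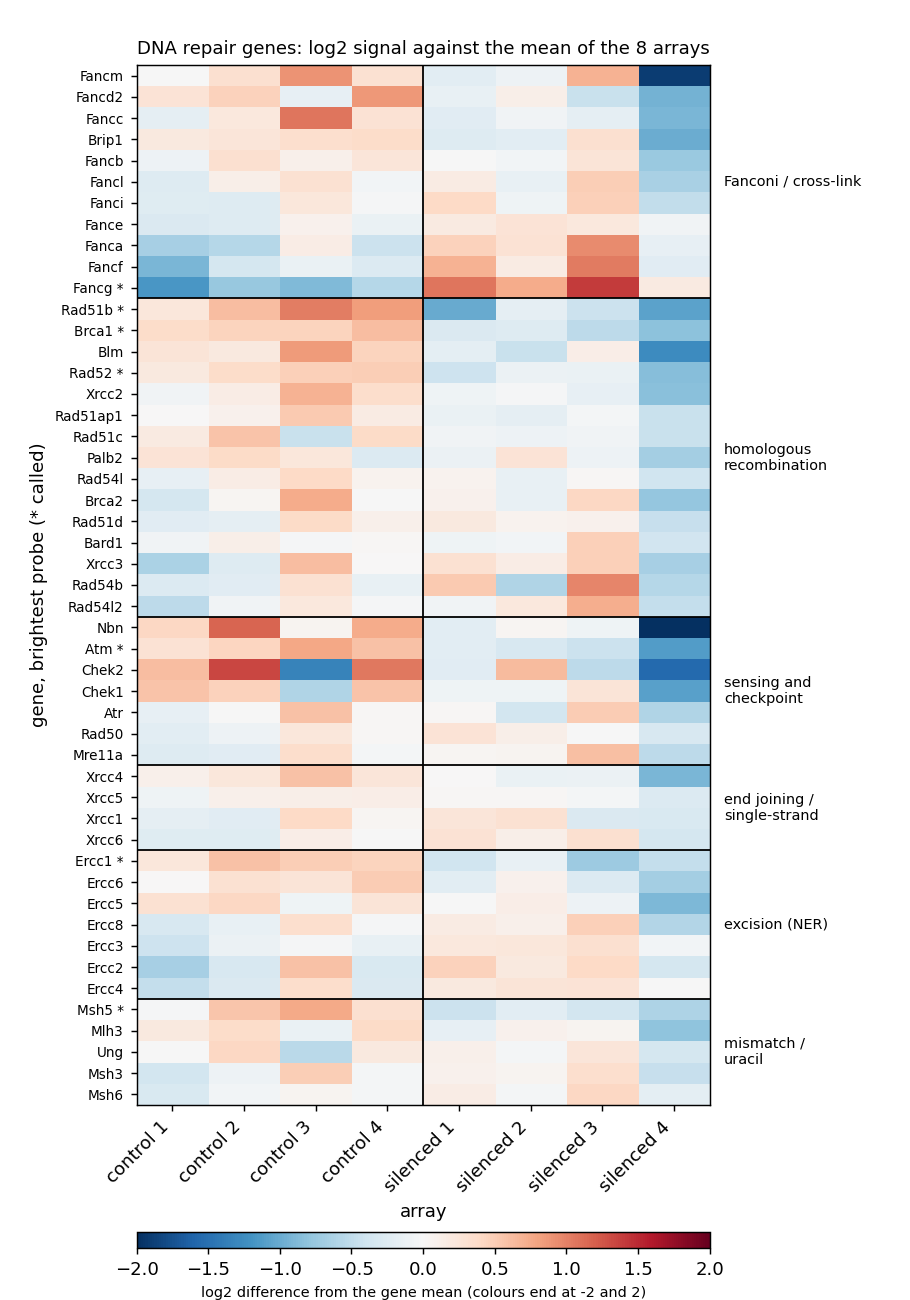
Log2 signal of 49 DNA repair genes on the 8 arrays, as the difference from each gene's mean over the arrays (red above, blue below), with genes grouped by role and called genes starred. The column of silenced replicate 4 is blue in most genes, with a median of -0.58 over all 52 repair genes against -0.55 over all genes on the same array, and Fancg at the foot of the first block runs against the falls in the others.

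The position of an array on the slide was unevenly shared between groups: the upper row held control replicates 1, 2 and 3 and silenced replicate 1, and the lower row the others. Within the upper row Brca1 differed by -0.71 and Atm by -0.70, and within the lower row by -1.14 and -1.21. Ercc1 differed by -0.83 and -0.90, Rad52 by -0.75 and -0.86, Rad51b by -1.63 and -1.41, Msh5 by -0.87 and -0.73, and Fancg by 2.00 and 1.34 in the upper and lower row. The groups of these 7 genes did not overlap, so their sign within each row was fixed beforehand and tells nothing about the row. With the row as a block 2 repair genes passed the test, Rad51b at -1.52 (limma adjusted p 0.0229) and Fancg at 1.67 (limma adjusted p 0.0212). Brca1 was then at -0.93 (limma adjusted p 0.0554) and Atm at -0.96 (limma adjusted p 0.0808).

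Repair genes that the symbol rule leaves out were taken as a list of 75, of which 72 were tested. Of these 17 fell and 3 rose, where 14.0% of all genes were called lower and 6.02% higher, and their median change was -0.23. This split also moved with the scaling, to 18 lower and 12 higher after cyclic loess and to 11 lower and 17 higher after the 75th percentile shift (median 0.08). Among those that fell were Clspn (-2.53), the adaptor through which Atr reaches Chek1, Hus1 (-1.50), a subunit of the checkpoint clamp, Recql5 (-1.40), a helicase, and Apex1 (-1.32), the main endonuclease at abasic sites. The nuclease subunits Eme1 (-1.13) and Mus81 (-0.98), Parp1 (-0.95), which marks strand breaks, Usp1 (-0.92), which takes ubiquitin off Fancd2, and Prkdc (-0.85), the kinase of end joining, were also called lower. The 3 that rose were Neil1 (1.44), Ogg1 (1.05) and Mbd4 (0.94), glycosylases that remove damaged bases. With the slide row as a block none of the list was called higher, and 5 were called lower. Other glycosylases of the list, Mutyh, Nthl1, Smug1, Neil3, Tdg and Mpg, were not called and lay between -0.40 in Nthl1 and 0.33 in Mpg, which was called after cyclic loess (limma adjusted p 0.0176). The 12 called genes named here kept their sign in 5 other ways of scaling or masking the arrays. The calls of Mus81 and Parp1 were lost after cyclic loess, and those of Apex1, Parp1 and Usp1 after the percentile shift. Without masking Recql5, Eme1, Mus81 and Parp1 lost theirs, in the authors' series table as well, and Mbd4 lost its call with normexp. Of 28 replication and fork genes 4 fell, among them Pola2 (-1.51) and Cdc45 (-1.01), and none rose, with a median of -0.17. Here too the direction was not stable, with 3 lower and 2 higher after cyclic loess, where Pola2 lost its call (limma adjusted p 0.0668), 2 lower and 7 higher after the percentile shift, and 4 of each in the series table. Without masking and in that table neither Pola2 nor Cdc45 was called. In the list of 20 mitosis and proliferation genes 8 fell, none rose and all 20 changes were negative (56.0% of all genes), with a median of -0.66. After the percentile shift 6 fell, none rose and 12 changes were negative, with 10.6% of all genes called lower and 33.9% negative. Of 20 targets that p53 induces after damage 5 rose and none fell, with a median of 0.39, and the largest change was in Trp53inp1 (3.26). After cyclic loess 9 of them rose, with 22.2% of all genes, and after the percentile shift 10, with 29.9%, and none was called lower. No test set one list against another.

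**Figure D3:**
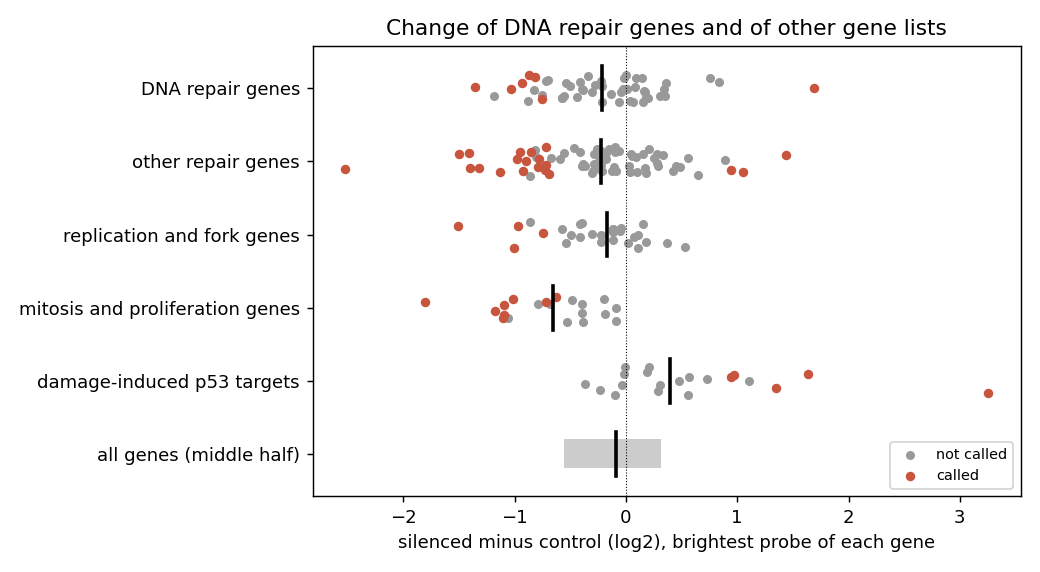
Change of each gene by its brightest probe in 5 lists, with called genes in red, the median as a black line, and the middle part (25th to 75th percentile) of all 19284 genes as a grey bar. The median of the DNA repair genes (-0.21) stands beside -0.23 for the other repair genes, -0.17 for replication and fork genes, -0.66 for the mitosis list, 0.39 for the p53 targets and -0.09 for all genes. The grey bar shows the spread of single genes and is no measure of how far a median may lie.

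Many repair genes were read at more than 1 place in the transcript. Counting every tested probe, 17 of 92 member probes were called lower and 1 higher, with 18.4% and 4.79% of all tested probes, and these calls touched 16 genes. After cyclic loess 16 were lower and 9 higher, and after the percentile shift 14 and 13. In 26 genes 2 tested probes at least 60 bases apart in the genome could be compared, the one nearest the 5′ end and the one nearest the 3′ end. The 5′ minus 3′ difference was taken on each array, so that the level of 1 probe is never set against that of another between groups, and tested with limma over all 6163 genes with such a pair. It fell in 8 repair genes and rose in 2, with 31.8% and 7.16% of all genes. The difference was negative in 18 of 26 repair genes (69.2%) and in 70.9% of all genes, with medians of -0.47 and -0.44. The shares and medians of the repair genes lay close to those of all genes, so the differences described next are not particular to repair genes. Where both probes were well above background on all 8 arrays, the difference was negative in 9 of 9 repair genes and called in 5 of them, where it was negative in 74.4% of all genes and called lower in 35.6%. Where both probes belong to 1 accession, the difference was negative in 11 of 15. The probe pairs of the genes with the largest called falls that can be printed here are shown to place each reading in its transcript, as the middle 30 bases of each 60-base probe, with the coordinates of the whole probe:
Fancg, 5′ probe, NM_053081, chr4:43017838-43017897, minus strand: aggtccctgtataccagagttatgtctgga
Fancg, 3′ probe, NM_053081, chr4:43015255-43015314, minus strand: aaggctatgttaatccttctggaggagcag
Fance, 5′ probe, NM_001163820, chr17:28455292-28455351, plus strand: taaaggatgagtccctggagtcagacatgc
Fance, 3′ probe, NM_001163819, chr17:28463401-28463460, plus strand: agccttttgtgctcaggtatatgttgtgac
Fanca, 5′ probe, NM_016925, chr8:125813811-125815354, minus strand: taccggaaagcctgtgcctctgctgagaag
Fanca, 3′ probe, NM_016925, chr8:125792210-125792269, minus strand: attaccaatctccttgattgctctagttag
Rad51d, 5′ probe, NM_001277939, chr11:82692779-82692838, minus strand: gtagaagattcaaacctgcccttggacgct
Rad51d, 3′ probe, NM_011235, chr11:82686589-82686648, minus strand: cgtgtgctttataaatatgtattggaaagt
Bard1, 5′ probe, NM_007525, chr1:71094217-71094276, minus strand: ttgagacagttcttaaggctaaaaagtgta
Bard1, 3′ probe, NM_007525, chr1:71074192-71074251, minus strand: catcagcagttggtttatgttagcttttaa
Rad50, 5′ probe, NM_009012, chr11:53506211-53506270, minus strand: gaaagagagacaggaaagagaagctaaaac
Rad50, 3′ probe, NM_009012, chr11:53463096-53463155, minus strand: aggaatataaaaccacgtcaatcaaatgca

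In Fancg, whose 3′ probe rose by 1.69, the 5′ probe lay 1247 bases upstream in the same transcript. It gave 6.45, 6.81, 6.06 and 6.81 on control arrays 1 to 4 and 6.10, 6.36, 6.19 and 4.12 on silenced arrays 1 to 4, a difference of -0.84 (SE 0.47, limma adjusted p 0.227) with overlap. The shift of the 5′ against the 3′ probe was -2.53 (SE 0.35, limma adjusted p 0.00098). A further Fancg probe between them differed by -0.62, so that the rise was seen at 1 of 3 tested probes. Both upstream probes were well above background on only some arrays.

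Fance, the core subunit that contacts Fancd2, had its 3′ probe at 12.39, 12.42, 12.76 and 12.56 in controls and 12.87, 12.96, 12.90 and 12.62 in silenced cells. Its 5′ probe, well above background on all arrays, read 9.82, 10.08, 9.63 and 10.21 in controls and 8.51, 8.69, 7.99 and 7.78 after silencing. The 3′ probe was slightly higher with overlap, and the 5′ probe fell by 1.69 on the log2 scale (SE 0.26, limma adjusted p 0.00226) without overlap. The shift between them was -1.99 (SE 0.26, limma adjusted p 0.000808). In Fanca the 5′ probe, on a stretch with a gap in the genome, measured 8.68, 9.36, 9.52 and 9.37 on control and 8.63, 9.00, 8.81 and 7.37 on silenced arrays. This was a difference of -0.78 (limma adjusted p 0.153), where the 3′ probe gave 0.76, and the shift was -1.54 (SE 0.28, limma adjusted p 0.00347). Neither probe of Fanca passed on its own.

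Rad50, the coiled-coil ATPase of the end-binding complex, read 7.17, 7.88, 7.55 and 7.71 and 6.46, 6.68, 6.64 and 5.76 at its 5′ probe on control and silenced arrays. All silenced arrays were below the controls there (-1.19, limma adjusted p 0.0111), while the 3′ probe differed by 0.03 with overlap. The shift was -1.23 (SE 0.23, limma adjusted p 0.00368). For Rad51d, which acts with Xrcc2, the 5′ probe had 8.46, 8.63, 8.83 and 8.82 in controls and 7.65, 7.95, 7.43 and 7.12 in silenced cells, a fall of 1.15 on the log2 scale (limma adjusted p 0.00696), and the 3′ probe 6.19, 6.61, 7.04 and 6.72 and 7.21, 6.79, 7.57 and 6.35. The 3′ probe differed by 0.34 and the shift was -1.49 (SE 0.28, limma adjusted p 0.00396). The brightest Rad51d probe, which lies between these and nearer the 5′ probe, differed by -0.04.

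Bard1, the partner of Brca1 in its ubiquitin ligase, had 5.87, 6.96, 7.04 and 6.80 in controls and 5.68, 5.60, 4.74 and 5.10 in silenced cells at the 5′ probe. That probe was well above background on 3 control arrays and on no silenced array, so its signal was at least 2.57-fold lower in silenced cells (limma adjusted p 0.0132). The 3′ probe of Bard1, well above background on all arrays, differed by -0.02, and the shift was called (limma adjusted p 0.0198), its size being a bound too. A middle probe of Msh3 was likewise well above background on 2 control arrays and on no silenced array, at least 2.38-fold lower (limma adjusted p 0.00621), where the brightest Msh3 probe differed by 0.01. Here the fit had 3 silenced values, since the spot of silenced replicate 4 was masked.

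In Ercc3 and Ercc1 both probes were well above background on all arrays. The 5′ probe of Ercc3 gave 12.27, 12.46, 12.09 and 12.32 on control and 11.10, 11.64, 10.80 and 11.14 on silenced arrays, a fall of 1.11 on the log2 scale (limma adjusted p 0.00743) without overlap. The 3′ probe of Ercc3, 492 bases downstream in the same transcript, differed by 0.35, and the shift was -1.46 (SE 0.25, limma adjusted p 0.0025). For Ercc1 the probe 339 bases upstream measured 11.71, 12.12, 12.36 and 12.08 and 10.78, 11.08, 10.41 and 10.22 in controls and silenced cells. Both Ercc1 probes fell, the 5′ probe by 1.44 on the log2 scale (limma adjusted p 0.00373), and the shift was -0.57 (SE 0.20, limma adjusted p 0.047). Chek1 had a called fall at its 5′ probe (-1.0, limma adjusted p 0.0466) and none at its brightest probe, with a shift of -0.50 (SE 0.25, limma adjusted p 0.148) that was not called.

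The order was turned in Msh5. In Msh5 the 5′ probe differed by 0.44 and the shift was 1.26 (SE 0.30, limma adjusted p 0.0101), with the 5′ probe well above background on only 2 of 8 arrays. In Blm, the other called rise (limma adjusted p 0.0474), the 5′ probe was of another accession and well above background on 1 array, its groups overlapped and it was not called, so that no size of the shift is given. The 3′ probe of Blm differed by -0.50. Brca1 showed the same order without a call, with 0.00 at its 5′ probe, which was well above background on 3 arrays, and a shift of 0.94 (SE 0.46, limma adjusted p 0.131). Palb2, which joins Brca1 to Brca2, was called lower at a second probe (-0.97, limma adjusted p 0.0366), well above background on all control arrays and on 1 silenced array, while its brightest probe differed by -0.31 and its dimmest tested probe was well above background on no array. A dim Rad54l probe was called lower (limma adjusted p 0.019) but was well above background on no array, so no fold is given, and the other Rad54l probes differed by -0.22 and 0.15. Rad52 was called at both probes, with -0.89 at the 5′ and -0.76 at the 3′ probe. No member was well above background on all arrays of 1 group and on none of the other.

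**Figure D4:**
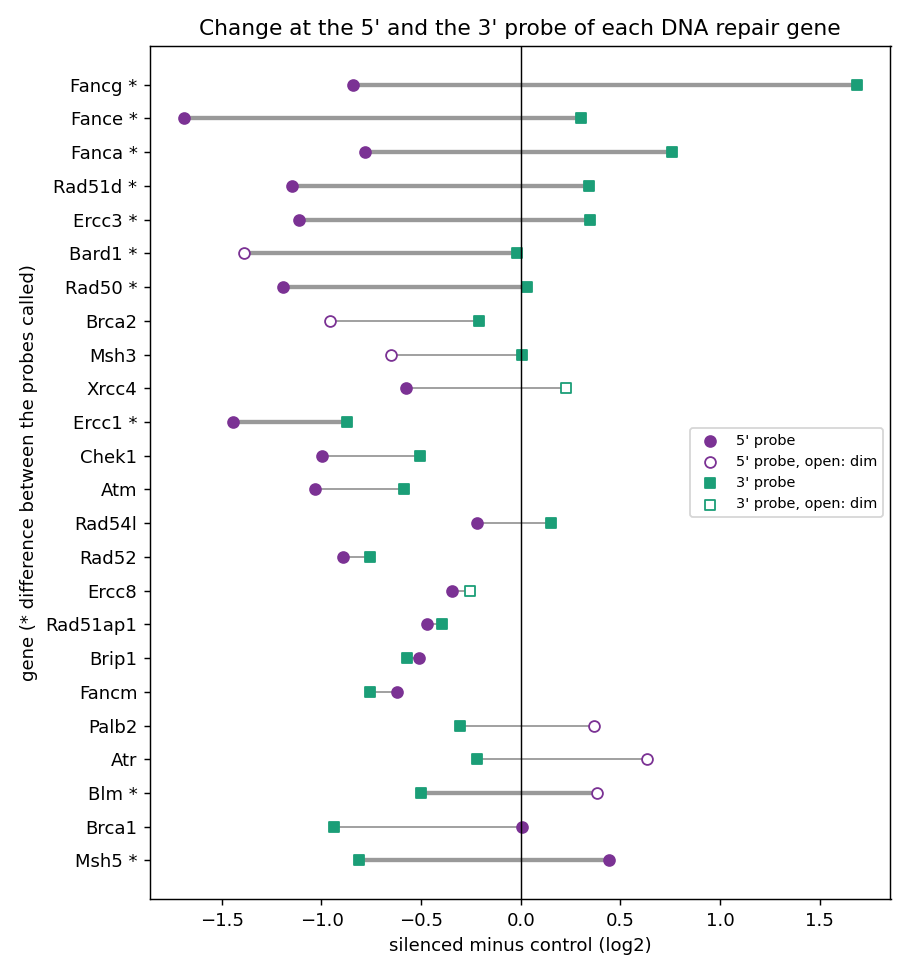
Change of the 5′ probe (circles) and the 3′ probe (squares) of 24 DNA repair genes, ordered by the difference between them, with a thick line and a star where the difference passed the test. Open symbols (dim in the key) are probes well above background on no array of a group, where the value is no measured size. In 17 genes the circle lies left of the square, most widely in Fancg (-0.84 against 1.69), and in Msh5 the called order is turned.

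**Figure D5:**
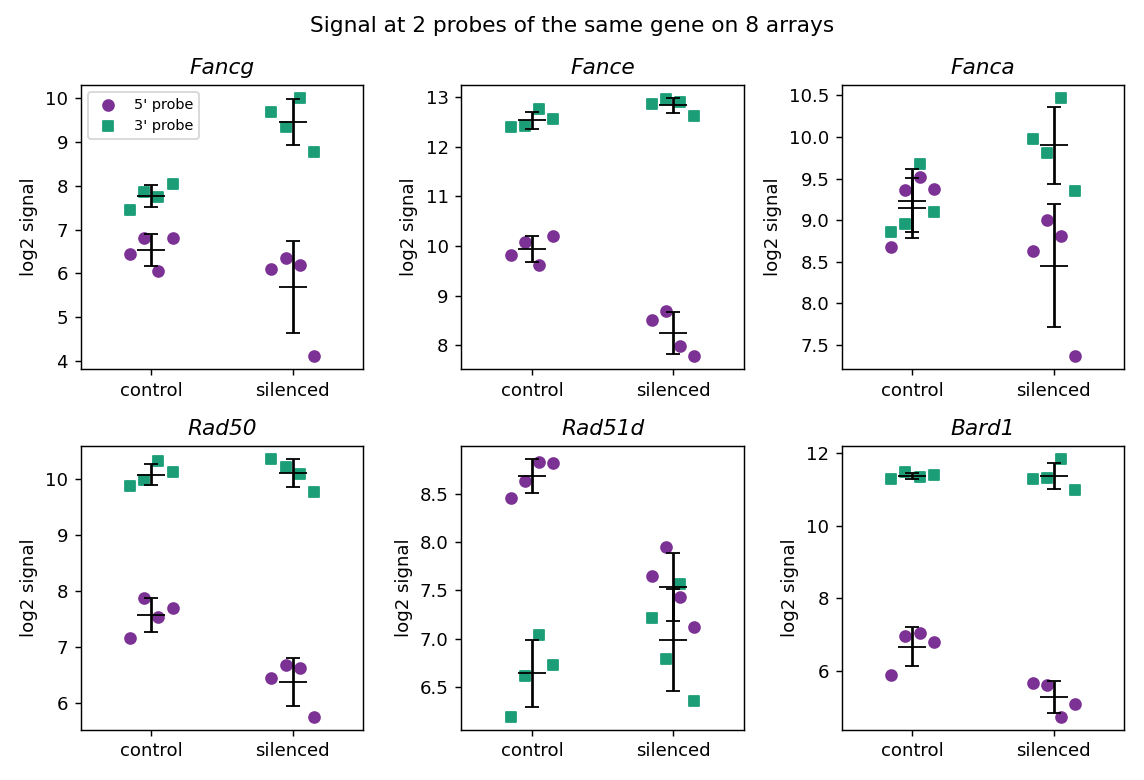
Log2 signal on the 8 arrays at the 5′ probe (circles) and the 3′ probe (squares) of 6 DNA repair genes, with mean and SD of 4 arrays per group. The 5′ probe of Bard1 was well above background on no silenced array. The axes differ between panels, and only the change between groups is to be read at each probe. The 5′ probes of Fance, Rad50, Rad51d and Bard1 were called lower and those of Fancg (-0.84) and Fanca (-0.78) were not, while the squares differ by -0.02 in Bard1 and 0.03 in Rad50 and are higher in Fancg (1.69).

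A polyadenylation signal lies shortly before the end of a message, and a probe that holds its letters may lie there. The letters AATAAA or ATTAAA were searched on the probe strand only, and either hexamer counted. They were held by 9 of 92 tested member probes (9.78%) and by 14.9% of all tested probes. Of these 9 probes 3 had a negative change and none was called. Their median change was 0.14, with -0.44 for the other 83 member probes, and over all probes the medians were 0.17 with and -0.26 without the hexamers. Whether a hexamer serves as a signal was not tested, and in Xrcc4 another tested probe lay 309 bases further downstream in the genome. To show the letters counted, the 30 bases around the hexamer are given, in capitals, for 7 genes whose brightest probe holds one:
Ercc2, brightest probe, NM_007949, chr7:19980982-19981041, plus strand: ccaccatgacacAATAAAatctgataggac
Fancf, brightest probe, NM_001115087, chr7:59115948-59116007, minus strand: acctatgtgtgcATTAAAattgcattgctc
Nbn, brightest probe, NM_013752, chr4:15906456-15906515, plus strand: tttcctgttgcaAATAAAaataaggattgg
Rad54l2, brightest probe, NM_030730, chr9:106590416-106590475, minus strand: tatttctctttttgtaaAATAAAgtttaaa
Xrcc3, brightest probe, NM_028875, chr12:113041404-113041463, minus strand: tttagacccggaAATAAAactttatttttg
Xrcc4, brightest probe, NM_028012, chr13:89988731-89988790, minus strand: ctccctttcttaATTAAAtctgagttttgt
Xrcc6, brightest probe, NM_010247, chr15:81870452-81870511, plus strand: tgccttactctgtgAATAAAgagctctaac

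Among these genes Fancf had the highest change, with 9.13, 9.69, 9.92 and 9.77 on control arrays 1 to 4 and 10.75, 10.20, 11.09 and 9.81 on silenced arrays 1 to 4. The silenced values overlapped the controls at replicate 4 only. Nbn and Xrcc4 were the lowest (-1.19 and -0.58), and the others lay between 0.14 in Xrcc3 and 0.35 in Ercc2.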

How the data were processed

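Total RNA from 8 cultures of proliferating C2C12 was hybridised on 1-colour Agilent arrays of 1 slide, scanned once. The scanner files deposited by the authors give linear, background-subtracted intensity per spot. Per the file headers they come from Feature Extraction 12.0.0.7, while the labels name version 10.7.3.1. The flags for signal above background, outliers and saturation (other values, 0 or 1) were deposited in the same files. A table of normalized intensity that the authors deposited for the series was used as an alternative only.

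Control spots, outliers and spots not positive and significant were left out, and log2 values of the deposited intensity were quantile normalized and averaged per probe. Probes with at least 3 values in each group (28649 of 56605) were fitted with limma 3.58.1 (R 4.3.3), on a 2-group design, and Benjamini-Hochberg adjusted p-values over all tested probes were read at 0.05. The study's methods give the mask on positive and significant spots and the normalization, and the removal of outliers and limma were chosen here. "Called" means past that threshold. A gene was read at its tested probe with the highest mean. Probes with no gene name, or named only by their own ID, were left out of gene counts. Where a probe was well above background on no array of a group, its fold is a bound, with the dim group set on each array to the lowest signal seen among probes well above background, or to the probe's own signal if higher. Intervals are 95% intervals of the fit.

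All members enter the counts and medians, and the values of 3 members are not reported here. Values on all arrays were given for the 5 largest called falls and rises at probes well above background on all 8 arrays, for 13 of 16 genes fixed by name, for members well above background in 1 group only (none), and members whose probes disagreed by more than 1 log2 with a call were named. The members and lists were chosen with earlier results of these data known. The fit of the 5′ minus 3′ difference, and other scalings of the mitosis and p53 lists and of the genes named from the other lists, were added after the data were seen. Gene symbols follow the array design. Of 92 member probes with a RefSeq accession 90 matched RefSeq's gene table (GRCm38.p6), none under another symbol. Coordinates are those of the files, on mm9, and exons and UTRs were not analysed here. The labels call the cultures biological replicates. Tested on simulated data (silenced against control, 28649 probes, 200 of them changed), the fit found 54.0% of changes of 2 log2 and 8.00% of changes of 1 log2, and 2 of its 64 calls were false. The real fit called 6642 probes, so its threshold was less strict, and these shares do not measure its sensitivity. Precision is limited by the number of arrays. Python 3.11.15, pandas and matplotlib were used for counts and figures.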

Additional observations from a re-analysis of the deposited data

Results flagged for a closer look

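In 112 groups of 4 values (the brightest probe of each of 52 genes and 4 summary values, in each group), 5 held an array far from the other 3, where chance gives about 1 in 20 groups. Chek1 on control replicate 3 read 8.33 with the other controls at 9.39 to 9.49. On silenced replicate 4, Nbn read 6.54 with the others at 8.45 to 8.70, Xrcc4 read 8.11 with the others at 8.90 to 9.04, and Rad51c read 13.09 with the others at 13.44 to 13.46. Xrcc5 on control replicate 1 read 12.40 with the other controls at 12.59 to 12.61. None of these 5 genes was called. The dimness of silenced replicate 4 moved with the values of Nbn, Xrcc4 and Rad51c, and its part in them was not tested.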

How the results depend on the processing

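Of 7 called repair genes none changed sign under any alternative. The alternatives did not include a reading at the 5′ probe, where Fancg differed by -0.84 and Msh5 by 0.44. Fancg was called in 20 of 21, Rad51b in 20 of 20, Brca1 in 19, Atm and Ercc1 in 18, Rad52 in 12 of 21 and Msh5 in 8 of 20. Fancg dropped to 0.04 when all its probes were averaged (limma adjusted p 0.949), Brca1 to -0.47 (limma adjusted p 0.382), and Atm to -0.58 (limma adjusted p 0.15) at its probe nearest the 3′ end. Of the genes that were not called, several changed sign without a call, and Ung turned to a called 0.53 (limma adjusted p 0.0316) after the shift to the 75th percentile, which moved the median of all probes from -0.19 to 0.16. Cyclic loess moved it to 0.02.

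Over all probes 6642 were called, with 10674 after cyclic loess, 11440 after the 75th percentile shift, 3106 with the slide row blocked and 3420 by a t-test of unequal variance with Benjamini-Hochberg adjustment. Repair probes (18 called) came to 8 with the slide row and 10 by the t-test. Repair genes (7 called) came to 12 after cyclic loess, 13 after the percentile shift, 11 in the authors' series table, 11 without masking, 2 with the slide row and 4 by the t-test. Their median change was 0.17 after the percentile shift. Other repair genes (20 called) came to 5 with the slide row and 8 by the t-test. Replication and fork genes (4 called) came to 9 after the percentile shift (7 higher and 2 lower, against none and 4), 7 with normexp, 8 in the series table (4 of each), 7 with only spots well above background and 1 with the slide row. Pairs with both probes well above background gave 5 called differences. The cause of these moves was not tested, except that the last has fewer genes. Pvt1 could not be read in the series table under the probe used here, and stayed between -3.12 and -2.19 under the other alternatives, which did not include another choice of its probe.

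Leaving out 1 array at a time gave 3709 to 8758 called probes in all, 11 to 21 repair probes, 4 to 9 repair genes, 6 to 23 other repair genes and 1 to 5 replication and fork genes. The median change of repair genes ran from -0.29 to -0.06, the Pvt1 change from -3.12 to -2.69, the median 5′ minus 3′ difference from -0.53 (without control replicate 1) to -0.29 (without control replicate 3), and its calls in repair genes from 7 to 10.

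Replicate numbers did not clearly pair the arrays: deviations of same-numbered arrays correlated at -0.04, 0.19, 0.22 and 0.06. The same-numbered silenced array was the best match for control replicates 2 and 3 but not for 1 and 4. With the replicate block 5017 probes, 12 repair probes, 5 repair genes, 11 other repair genes and 3 replication and fork genes were called, the median of repair genes was -0.21 and the Pvt1 change -2.86. In the simulated data, where few probes were changed, a change near 1 log2 was often not detected at 4 arrays a group.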
